A study of Homo sapiens with 28 samples.

Results

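The libraries described here are the cytoplasmic fractions of MDA-MB-453 cells, an established line of human breast cancer, treated for 3 h with IBET151 or the solvent DMSO. MDA-MB-453 is a luminal line with extra HER2. The libraries were chosen by their labels and number 5, 2 of IBET151 and 3 of DMSO, out of 14 cytoplasmic libraries and 28 in the series. Used for comparison were 3 cytoplasmic libraries each of IBET151-VHL, built from IBET151 and a ligand of the ubiquitin ligase VHL, and of JQ1, another BET inhibitor, and the nuclear libraries of IBET151 (2) and DMSO (3). All groups, DMSO included, shared 0.1 mM 4-thiouridine for the last 60 min, an addition of 10% Drosophila S2 cells, and digitonin, which opens the plasma membrane so that nuclei can be pelleted from the cytoplasm. All libraries came from 1 cell line, and the labels give no doses. The tables hold 16482 genes for all reads and 13029 genes for T>C reads, those with a T-to-C conversion, which marks RNA made while 4-thiouridine was present.

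IBET151 is a small molecule that fills the acetyl-lysine pocket of the bromodomains of the BET proteins, BRD2 and BRD3 among them, and so displaces them from acetylated chromatin. BET proteins help to bring the elongation kinase P-TEFb to promoters and enhancers, and genes with short-lived mRNAs show their loss first. Known marks of BET inhibition in many cell lines are higher mRNA of HEXIM1 (an inhibitor of P-TEFb), SERPINI1 and histone genes that give polyadenylated transcripts. The cytoplasmic fraction holds mostly exported mRNA, so all reads report the standing pool and T>C reads its newest members.

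The IBET151 libraries held 31418683 and 35418287 reads, and the DMSO libraries held 34254024, 40311021 and 50793337. Of these 180986 and 232145 were T>C reads in IBET151 libraries and 280190, 315279 and 379401 in DMSO libraries. Values are 3′ end reads scaled by the authors to ERCC RNA added per mass of RNA, called scaled reads below. Reads of 3′ ends do not grow with transcript length, so levels of genes can be set side by side. In these units 1 read was worth 0.951 and 0.911 scaled reads in IBET151 libraries and 0.805, 0.844 and 0.517 in DMSO libraries. Such a scale compares equal masses of RNA, not equal numbers of cells, and in a bulk fraction fewer cells of a kind and less RNA per cell cannot be told apart. All 10 luminal markers looked for were present, with summed levels of 133962 to 151900 scaled reads in IBET151 libraries and 168814 to 200310 in DMSO libraries. Of 4 immune markers with a row 3 were above 0, with sums of 27.6 to 35.5 in IBET151 libraries and 32.6 to 38.6 in DMSO libraries, nearly all of it CD68. Of 5 stromal markers COL1A1 lay between 1170.3 and 2496 scaled reads in the 5 libraries, and the other 4 reached at most 5.91. MALAT1, an RNA kept in the nucleus, averaged 2534 ± 517 scaled reads in the IBET151 cytoplasm (SD, n = 2) and 2138 ± 938 in the DMSO cytoplasm (SD, n = 3), against 46475 and 38870 in the nuclear fractions of IBET151 and DMSO.

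Libraries of 1 group lay nearly as far apart as libraries of different groups. The SD over genes of the log2 difference was 0.54 between the IBET151 libraries and 0.60 to 0.75 between DMSO libraries, against 0.56 to 0.84 between an IBET151 and a DMSO library. The highest of these values came from DMSO library 1. The respiratory chain genes give an example, with NDUFB3 at 9113 and 10133 scaled reads in IBET151 libraries, against 1359, 9651 and 8123 in DMSO libraries. The library numbers in the titles were split here into runs, which the labels do not name. The last 2 runs meet at numbers 961 and 963, a gap also seen within runs, and may be 1 run. By this split IBET151 library 1 shares a run with DMSO library 2, and IBET151 library 2 with no DMSO library. With the last 2 runs joined, IBET151 library 2 shares a run with DMSO library 3. In the main cytoplasmic fit the p-values of genes rest on the spread within all cytoplasmic groups, not within IBET151 and DMSO alone. That spread may be technical.

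In the standing pool the largest rises with 3 h of IBET151 included TUBB3, RGS2, SOCS1, FOS and EGR1, and the largest falls PDE4B, 2 endothelin genes and 3 zinc finger genes. Among 12470 genes tested 112 rose and 202 fell (limma, Benjamini-Hochberg adjusted p under 0.05), which is 0.898% and 1.62% of the genes tested. The median change was 0.00 on the log2 scale, and the groups did not overlap in 19.5% of genes. A random order of 2 and 3 libraries would give about as large a share, so lack of overlap alone says little of a gene. Changes are on the scale of log2(scaled reads + 1), which understates those of low genes. The largest changes are taken among genes that passed, did not overlap between the groups and had a mean of at least 50 scaled reads. The counts moved with single libraries. Without IBET151 library 1 there were 21 higher and 32 lower, without IBET151 library 2 17 and 53, without DMSO library 1 67 and 136, and without DMSO library 2 366 and 168.

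TUBB3, a beta-tubulin best known from neurons, showed the largest rise among these genes, with 213 and 243 scaled reads in IBET151 libraries, against 21.7, 12.7 and 5.69 in DMSO libraries. The groups were far apart (log2 change 4.16 ± 0.44, limma adjusted p = 0.000443, mean ± SE here and below). Read-through transcripts join TUBB3 to its neighbour MC1R, so part of its reads may belong to these. RGS2, which speeds the switching off of G proteins, had 534 and 470.1 scaled reads in IBET151 libraries, against 38.6, 77.7 and 41.9 in DMSO libraries (log2 change 3.29 ± 0.33, limma adjusted p = 0.000275). SOCS1, an inhibitor of JAK and STAT signalling, had 399 and 399.9 scaled reads in IBET151 libraries, against 12.1, 74.3 and 59.5 in DMSO libraries (log2 change 3.36 ± 0.52, limma adjusted p = 0.00327). Both inhibitors of signalling were even across the IBET151 libraries and low in every DMSO library, though lack of overlap was a condition of their choice. The limma adjusted p exceeded 0.05 without IBET151 library 1 for SOCS1 (0.0510).

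DYRK3, a kinase that dissolves condensates such as stress granules, had 237 and 208 scaled reads in IBET151 libraries, against 18.5, 32.1 and 15.004 in DMSO libraries (log2 change 3.35 ± 0.42, limma adjusted p = 0.000906). MAFA, a transcription factor known from pancreatic beta cells, had 604 and 631 scaled reads in IBET151 libraries, against 83.7, 102 and 69.8 in DMSO libraries (log2 change 2.86 ± 0.25, limma adjusted p = 8.45e-05). SERTAD1, a partner of cyclin-dependent kinase 4, was the most abundant of the 12 largest rises, with 4542 and 4933 scaled reads in IBET151 libraries, against 852, 1148 and 1044 in DMSO libraries (log2 change 2.23 ± 0.19, limma adjusted p = 8.45e-05). In all 3 genes the IBET151 libraries lay close together. That they lay above every DMSO library was a condition of the choice of these genes. TENT5C (a poly(A) polymerase), TEX14 (a protein of germ cell bridges) and H2BC18 (a histone H2B gene with near-identical copies) rose by 2.55 to 2.93 on the log2 scale. Calls were lost without IBET151 library 1 for TENT5C (0.0505), TEX14 (0.166) and H2BC18 (0.0733), without IBET151 library 2 for TENT5C (0.0678) and H2BC18 (0.0572).

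The early-response genes FOS, a subunit of AP-1, and EGR1, a zinc finger factor, rose unevenly. FOS had 173 and 747 scaled reads in IBET151 libraries, against 22.5, 27.9 and 32.1 in DMSO libraries (log2 change 3.68 ± 0.66, limma adjusted p = 0.00742). EGR1 had 2259.8 and 5240.4 scaled reads in IBET151 libraries, against 411, 251 and 647 in DMSO libraries (log2 change 3.08 ± 0.75, limma adjusted p = 0.0425). IBET151 library 2 was the higher one for both genes, and lack of overlap was a condition of their choice. Some calls did not outlast a left-out library, without IBET151 library 1 for EGR1 (0.131), without IBET151 library 2 for FOS (0.175) and EGR1 (0.394), without DMSO library 1 for EGR1 (0.0977), without DMSO library 2 for EGR1 (0.0839). Other settings also ended calls (adjusted p in parentheses), no filter on low values for EGR1 (0.0617).

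PDE4B, an enzyme that breaks down cyclic AMP, showed the largest fall among such genes, with 10.5 and 20.95 scaled reads in IBET151 libraries, against 101, 152 and 104 in DMSO libraries. All 3 DMSO libraries lay above both IBET151 libraries, as the choice of genes required (log2 change -2.89 ± 0.38, limma adjusted p = 0.00139). The endothelins EDN1 and EDN2, secreted peptides that constrict vessels, both fell. EDN1 had 24.7 and 74.7 scaled reads in IBET151 libraries, against 339.7, 209 and 320.3 in DMSO libraries (log2 change -2.69 ± 0.48, limma adjusted p = 0.00751). EDN2 had 17.1 and 23.7 scaled reads in IBET151 libraries, against 117, 159.6 and 81.7 in DMSO libraries (log2 change -2.46 ± 0.56, limma adjusted p = 0.0298). Both stayed apart from DMSO in every library, which was a condition of their choice. Among the 12 largest falls BCL3, a nuclear member of the IkB family, had the highest level, with 535 and 538 scaled reads in IBET151 libraries, against 2599, 2953 and 1972 in DMSO libraries (log2 change -2.20 ± 0.25, limma adjusted p = 0.000552). The limma adjusted p exceeded 0.05 without IBET151 library 1 for EDN1 (0.179) and EDN2 (0.293), without IBET151 library 2 for EDN2 (0.162), without DMSO library 1 for EDN2 (0.0810), without DMSO library 2 for EDN2 (0.0629).

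Of the 12 largest falls 3 were C2H2 zinc finger genes. ZNF689 had 157 and 132 scaled reads in IBET151 libraries, against 1076, 977 and 674 in DMSO libraries (log2 change -2.62 ± 0.30, limma adjusted p = 0.000552), and ZNF114 and ZNF507 changed by -2.81 and -2.20 on the log2 scale. The others were JRK and TIGD1 (derived from transposases), METTL18 (a histidine methyltransferase of a ribosomal protein), and KLHL9 and KBTBD7 (adaptors of CUL3 ubiquitin ligases), with changes of -2.70 to -2.03. IBET151 library 1 and DMSO library 2 share a run. Their difference was 1.97 to 3.97 in the 12 largest rises and -3.74 to -2.04 in the 12 largest falls. IBET151 library 2 minus DMSO library 3, from the last 2 runs, which may be 1, gave 2.24 to 5.19 and -2.80 to -1.75. The sign of these differences was fixed by choosing genes without overlap. Their size was selected too, since the genes were the largest changes in the same libraries. They are thus no separate check on the runs. Left-out libraries ended some calls (limma adjusted p in parentheses), without IBET151 library 1 for TIGD1 (0.0505), METTL18 (0.0832) and KBTBD7 (0.0524), without IBET151 library 2 for JRK (0.0676), TIGD1 (0.104) and KBTBD7 (0.143).

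**Figure D1:**
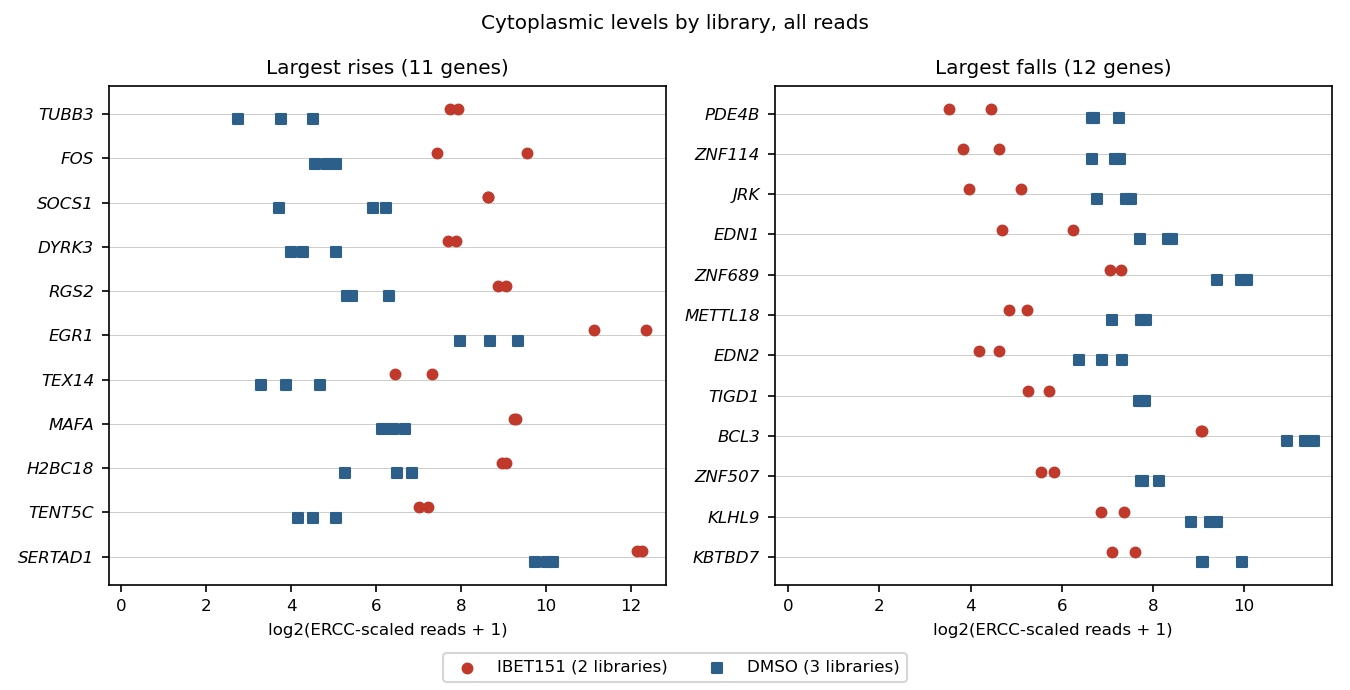
Cytoplasmic level of 11 of the 12 genes with the largest rises (left) and of the 12 with the largest falls (right) in all reads, as log2(scaled reads + 1), 1 point per library, IBET151 as red circles (n = 2) and DMSO as blue squares (n = 3). No IBET151 library overlaps a DMSO library in any of these genes, which was a condition of their choice.

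Promoters are shown for the 2 largest rises and the 2 largest falls that could be printed from the RefSeq table (GRCh38.p14), since these genes mark the ends of the response. Each window runs from 250 bases before the annotated gene start to 50 after it, and capitals mark matches on either strand to the TATA motif TATAAA, the CCAAT box CCAAT, the E-box CACGTG, the AP-1 motif TGACTCA, the CRE motif TGACGTCA or the GC box GGGCGG, of which none holds another. All 4 genes are on the plus strand, TUBB3 at chr16:89921675-89921974, FOS at chr14:75278578-75278877, PDE4B at chr1:65792260-65792559 and EDN1 at chr6:12287769-12288068.
TUBB3: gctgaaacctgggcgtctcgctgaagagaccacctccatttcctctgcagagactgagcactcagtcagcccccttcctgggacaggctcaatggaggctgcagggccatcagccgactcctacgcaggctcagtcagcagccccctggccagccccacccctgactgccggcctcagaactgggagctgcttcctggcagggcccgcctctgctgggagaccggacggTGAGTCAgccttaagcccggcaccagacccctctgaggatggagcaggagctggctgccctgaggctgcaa
FOS: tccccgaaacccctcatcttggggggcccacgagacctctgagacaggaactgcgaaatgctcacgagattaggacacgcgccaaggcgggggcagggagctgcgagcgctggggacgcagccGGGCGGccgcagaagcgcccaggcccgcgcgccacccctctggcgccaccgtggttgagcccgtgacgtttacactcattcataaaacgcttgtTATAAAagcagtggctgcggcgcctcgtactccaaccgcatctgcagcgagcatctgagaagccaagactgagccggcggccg
PDE4B: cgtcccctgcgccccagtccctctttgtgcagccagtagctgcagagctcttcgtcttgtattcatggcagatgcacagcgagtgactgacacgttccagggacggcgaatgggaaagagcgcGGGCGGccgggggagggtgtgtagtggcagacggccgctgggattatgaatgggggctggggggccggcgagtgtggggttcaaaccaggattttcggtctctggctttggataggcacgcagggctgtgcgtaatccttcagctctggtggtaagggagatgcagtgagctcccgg
EDN1: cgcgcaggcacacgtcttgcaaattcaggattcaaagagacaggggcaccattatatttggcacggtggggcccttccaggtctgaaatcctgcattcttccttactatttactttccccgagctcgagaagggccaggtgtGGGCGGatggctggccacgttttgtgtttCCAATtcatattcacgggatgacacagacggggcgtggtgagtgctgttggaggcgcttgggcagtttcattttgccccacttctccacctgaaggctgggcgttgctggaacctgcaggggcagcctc
The FOS window holds TATAAA, which starts at position -33 from the gene start, and GGGCGG at -127. The TUBB3 window holds TGACTCA on the minus strand at -21, the PDE4B window GGGCGG at -127, and the EDN1 window GGGCGG at -108 and CCAAT at -79. Over the 27305 promoter windows in the table TATAAA was in 11.95%, CCAAT in 35.7%, CACGTG in 7.43%, TGACTCA in 4.92%, TGACGTCA in 1.98% and GGGCGG in 44.6%. The matches describe these windows and say nothing of binding. An entry was found for 84 of the 112 genes that rose and 161 of the 202 that fell, under 80% of each, so no share is given for them.

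Genes that changed in the standing pool had shorter spans than most. By GENCODE release 29, matched by Ensembl identifier for 98.6% of genes, the median span was 15.4 kb for genes that rose and 18.9 kb for genes that fell, against 35.4 kb for all genes tested. Genes of a single exon made up 7.48% of those that rose, 5.50% of those that fell and 1.70% of all tested. Of the 3074 shortest genes 52 rose and 80 fell, and of the 3074 longest 10 rose and 15 fell, with median DMSO levels of 849.7 and 342 scaled reads. Genes were also ranked by the T>C share of their reads in nuclear DMSO libraries, which the comparison did not use. Of the 3074 with the highest share 55 rose and 83 fell, and of the 3074 with the lowest 6 rose and 10 fell, with median DMSO levels of 251 and 943 scaled reads. Level moves with both properties, and its part in these counts was not tested.

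Lists in all reads are read against all genes tested, of which 0.898% rose and 1.62% fell. Among the lists, immediate-early genes had a median log2 change of 0.76, against 0.00 over all genes, and 6 of 30 rose and 1 fell. Besides FOS and EGR1 these were IER5 and IER5L (early-response genes of a related family), JUND (a partner of FOS in AP-1) and MCL1 (a short-lived protein that blocks apoptosis). IER5 had 5710.4 and 4617 scaled reads in IBET151 libraries, against 1711, 1901 and 1225 in DMSO libraries (log2 change 1.69 ± 0.24, limma adjusted p = 0.00204). The member that fell was ZFP36L1, which binds AU-rich elements and speeds mRNA decay, with 2554 and 2230.2 scaled reads in IBET151 libraries, against 7066, 9215 and 8342 in DMSO libraries (log2 change -1.77 ± 0.23, limma adjusted p = 0.00134). Both genes kept the groups far apart, in opposite directions. Calls were lost without IBET151 library 1 for IER5 (0.0505), IER5L (0.195), MCL1 (0.281) and EGR1 (0.131), without IBET151 library 2 for IER5L (0.336), JUND (0.124), MCL1 (0.303), FOS (0.175) and EGR1 (0.394), without DMSO library 1 for IER5L (0.122), MCL1 (0.142) and EGR1 (0.0977), without DMSO library 2 for EGR1 (0.0839), without DMSO library 3 for IER5L (0.0649) and MCL1 (0.0936). The adjusted p was also over 0.05 under a fit of only the groups compared for IER5L, JUND and MCL1 (0.113 to 0.237), edgeR for MCL1 (0.0576), no filter on low values for IER5L, MCL1 and EGR1 (0.0526 to 0.0617), a pseudocount of 0.5 for MCL1 (0.0502). With IBET151 library 1 left out 2 immediate-early genes rose and 1 fell, and with IBET151 library 2 left out 1 rose and 1 fell.

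Feedback genes of the MAP kinase pathway split, with 3 of 19 higher and 3 lower (median log2 change -0.03). The phosphatase gene DUSP7 and the EGF receptor inhibitor ERRFI1 rose. So did DYRK3, which the list holds though it is described above as a kinase of condensates. The phosphatases DUSP4 and DUSP6 and the Sprouty gene SPRY1, which damp ERK signalling, fell. DUSP4 had 279.6 and 325 scaled reads in IBET151 libraries, against 1124, 1195 and 1092 in DMSO libraries (log2 change -1.91 ± 0.21, limma adjusted p = 0.000481). DUSP6 had 1287 and 1528 scaled reads in IBET151 libraries, against 4008, 4575 and 3249 in DMSO libraries (log2 change -1.48 ± 0.28, limma adjusted p = 0.00965). Of 16 SOCS and RGS genes RGS2 and SOCS1 rose, and RGS3, another regulator of G proteins, fell, with 984 and 919 scaled reads in IBET151 libraries, against 2364, 3065 and 2264 in DMSO libraries. KLF2, a zinc finger factor known from endothelium, was the 1 of 12 KLF genes that rose, with 3928 and 6541 scaled reads in IBET151 libraries, against 686, 1488 and 1885 in DMSO libraries (log2 change 2.03 ± 0.41, limma adjusted p = 0.0163). Some calls did not outlast a left-out library, without IBET151 library 1 for DUSP7 (0.218), ERRFI1 (0.242), SPRY1 (0.106), DUSP6 (0.158), SOCS1 (0.0510) and KLF2 (0.0684), without IBET151 library 2 for DUSP7 (0.258), ERRFI1 (0.293), DUSP6 (0.0785) and KLF2 (0.235), without DMSO library 1 for ERRFI1 (0.115). Calls did not hold either under a fit of only the groups compared for ERRFI1 (0.374), no filter on low values for ERRFI1 (0.0517).

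Of the BET inhibitor response genes 4 of 19 rose and 0 fell, with a median log2 change of 0.73. Those that rose were ZCCHC24, BRD2 and the histone genes H2BC21 and H2BC12. BRD2, itself a BET gene, had 13527 and 13628 scaled reads in IBET151 libraries, against 8459.9, 7846 and 5616 in DMSO libraries (log2 change 0.92 ± 0.20, limma adjusted p = 0.0231). ZCCHC24 had 888 and 927 scaled reads in IBET151 libraries, against 188, 312 and 153 in DMSO libraries (log2 change 2.12 ± 0.34, limma adjusted p = 0.00378). HEXIM1 had 4328 and 4172 scaled reads in IBET151 libraries, against 1920, 3357 and 2298 in DMSO libraries, which did not overlap, but it did not pass (log2 change 0.79 ± 0.25, limma adjusted p = 0.148). SERPINI1 was low, with 16.2 and 18.2 scaled reads in IBET151 libraries, against 10.5, 5.91 and 3.10 in DMSO libraries (limma adjusted p = 0.443). MYC, often lowered by BET inhibitors in blood cancers, had 44.7 and 113 scaled reads in IBET151 libraries, against 70.8, 202 and 239 in DMSO libraries, which overlapped (limma adjusted p = 0.439). With either IBET151 library left out 0 of these response genes passed. The limma adjusted p exceeded 0.05 without IBET151 library 1 for ZCCHC24 (0.0530), BRD2 (0.192), H2BC21 (0.0946) and H2BC12 (0.158), without IBET151 library 2 for ZCCHC24 (0.0603), BRD2 (0.193), H2BC21 (0.124) and H2BC12 (0.318), without DMSO library 1 for H2BC12 (0.0851). Besides, calls were lost to a fit of only the groups compared for BRD2, H2BC21 and H2BC12 (0.0559 to 0.207), median-ratio scaling for H2BC12 (0.0591), no filter on low values for H2BC12 (0.0533).

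Polyadenylated histone genes had log2 changes above 0 in 20 of 21 cases, and 4 rose (median 0.63). H2BC21 had 1591 and 1731 scaled reads in IBET151 libraries, against 517, 814 and 804 in DMSO libraries (log2 change 1.25 ± 0.23, limma adjusted p = 0.00837), and H2AC6, H2BC12 and H3-3B rose by 0.75 to 1.14 on the log2 scale. With either IBET151 library left out 0 of the list passed. Left-out libraries ended some calls (limma adjusted p in parentheses), without IBET151 library 1 for H2BC21 (0.0946), H2AC6 (0.214), H2BC12 (0.158) and H3-3B (0.160), without IBET151 library 2 for H2BC21 (0.124), H2AC6 (0.359), H2BC12 (0.318) and H3-3B (0.215), without DMSO library 1 for H2AC6 (0.0643), H2BC12 (0.0851) and H3-3B (0.0595). Changed settings had the same effect, a fit of only the groups compared for H2BC21, H2AC6, H2BC12 and H3-3B (0.0559 to 0.207), edgeR for H2AC6 (0.0568), median-ratio scaling for H2BC12 (0.0591), no filter on low values for H2AC6, H2BC12 and H3-3B (0.0533 to 0.0630), a pseudocount of 0.5 for H2AC6 (0.0505). Reads of histone genes may be shared between near-identical copies. Among 31 genes of P-TEFb, the 7SK particle and super elongation complexes the 1 that changed was HEXIM2, the paralog of HEXIM1, with 158 and 143 scaled reads in IBET151 libraries, against 592, 549 and 390.1 in DMSO libraries (log2 change -1.73 ± 0.24, limma adjusted p = 0.00185).

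Of 25 p53 target genes 5 rose and 1 fell (median log2 change 0.15). PMAIP1 and BBC3 encode NOXA and PUMA, which promote apoptosis. PMAIP1 had 74.2 and 72.9 scaled reads in IBET151 libraries, against 8.86, 16.04 and 13.5 in DMSO libraries (log2 change 2.47 ± 0.35, limma adjusted p = 0.00200), and BBC3 had 1219 and 1382 scaled reads in IBET151 libraries, against 584, 599 and 604 in DMSO libraries (log2 change 1.12 ± 0.18, limma adjusted p = 0.00450). GADD45B (a stress gene), CDKN1A (the p21 inhibitor of cyclin-dependent kinases) and SESN2 (sestrin, a stress inhibitor of mTOR) also rose, and the kinase gene PLK2 fell. Among 19 BCL2 family genes PMAIP1, BBC3 and MCL1 rose, and BCL2L1, which encodes the survival protein BCL-XL, fell, with 2504 and 2701 scaled reads in IBET151 libraries, against 5155, 4450.1 and 3509.5 in DMSO libraries (log2 change -0.73 ± 0.16, limma adjusted p = 0.0259). Calls were lost without IBET151 library 1 for CDKN1A (0.162), SESN2 (0.241), PLK2 (0.107), MCL1 (0.281) and BCL2L1 (0.273), without IBET151 library 2 for BBC3 (0.0925), CDKN1A (0.0678), SESN2 (0.108), PLK2 (0.0590), MCL1 (0.303) and BCL2L1 (0.162), without DMSO library 1 for MCL1 (0.142) and BCL2L1 (0.0668), without DMSO library 3 for MCL1 (0.0936). Other settings also ended calls (adjusted p in parentheses), a fit of only the groups compared for BBC3, SESN2, MCL1 and BCL2L1 (0.0950 to 0.382), edgeR for MCL1 (0.0576), no filter on low values for MCL1 (0.0608), a pseudocount of 0.5 for MCL1 (0.0502).

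Of 33 luminal and HER2 genes 8 lay above 0 and 3 fell (median log2 change -0.22). GATA3, a master factor of luminal cells, had 22294 and 20152 scaled reads in IBET151 libraries, against 45036, 53383 and 39095 in DMSO libraries (log2 change -1.10 ± 0.20, limma adjusted p = 0.00710). MYB, a factor of growth in luminal and blood cells, had 379 and 359.9 scaled reads in IBET151 libraries, against 1068, 1125 and 976 in DMSO libraries (log2 change -1.51 ± 0.22, limma adjusted p = 0.00241). The third was TFAP2B, an AP-2 factor, with a log2 change of -0.84. FOXA1, which opens chromatin for nuclear receptors, had 3257 and 3472 scaled reads in IBET151 libraries, against 4591, 10248 and 7533 in DMSO libraries and did not pass (limma adjusted p = 0.0700). ERBB2, which encodes HER2, had 2476 and 4732 scaled reads in IBET151 libraries, against 4909.8, 4347 and 3974 in DMSO libraries. The groups overlapped, and it did not pass (limma adjusted p = 0.794). Some calls did not outlast a left-out library, without IBET151 library 1 for GATA3 (0.0733) and TFAP2B (0.130), without IBET151 library 2 for GATA3 (0.111) and TFAP2B (0.235). The adjusted p was also over 0.05 under a fit of only the groups compared for TFAP2B (0.138).

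Zinc finger genes, the largest list, leaned down, with 27 of 421 lower and 3 higher, a median log2 change of -0.27 and 127 above 0. With IBET151 library 1 left out 1 rose and 3 fell, and with IBET151 library 2 left out 2 rose and 5 fell. Those that rose were ZNF425, ZNF280C and ZNF726. ZNF425 had 224 and 220.5 scaled reads in IBET151 libraries, against 78.9, 71.8 and 60.0 in DMSO libraries (log2 change 1.66 ± 0.22, limma adjusted p = 0.00139), against the direction of most of the list. Of 37 ribosome biogenesis genes RRS1 and PPAN fell (median -0.16). RRS1, an assembly factor of the large subunit, had 1994 and 2172 scaled reads in IBET151 libraries, against 4304, 4409.6 and 3480 in DMSO libraries (log2 change -0.96 ± 0.15, limma adjusted p = 0.00444). E2F2 was the 1 of 38 cell cycle genes that fell, TFEB, a master factor of lysosomes, the 1 of 37 autophagy and lysosome genes, and BCL3 the 1 of 18 NF-kB target genes. TFEB had 141 and 166 scaled reads in IBET151 libraries, against 336, 338 and 318 in DMSO libraries (log2 change -1.11 ± 0.21, limma adjusted p = 0.0116). The limma adjusted p exceeded 0.05 without IBET151 library 1 for ZNF280C (0.129), ZNF726 (0.363), RRS1 (0.0890), PPAN (0.195), E2F2 (0.0892) and TFEB (0.185), without IBET151 library 2 for ZNF726 (0.231), E2F2 (0.189) and TFEB (0.0811), without DMSO library 1 for ZNF726 (0.136), without DMSO library 3 for ZNF726 (0.101). Calls did not hold either under a fit of only the groups compared for ZNF280C, ZNF726, RRS1, PPAN, E2F2 and TFEB (0.0603 to 0.183), edgeR for ZNF726 (0.0568), no filter on low values for ZNF726 (0.0708).

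The remaining lists held few calls. RBM39, a splicing factor, had 2385 and 2325 scaled reads in IBET151 libraries, against 4739.9, 5633 and 3399 in DMSO libraries (log2 change -0.93 ± 0.21, limma adjusted p = 0.0276). It fell and DYRK3 rose among 35 speckle and SR protein genes (median log2 change -0.06), and TUBB3 and TUBB2A rose among 13 tubulin genes (0.22). SESN2 and the heat shock gene HSPA1B rose and the pseudokinase gene TRIB3 fell among 25 heat shock and unfolded protein genes (0.25). The reads of HSPA1B are uncertain, since HSPA1A is a near-identical copy. Left-out libraries ended some calls (limma adjusted p in parentheses), without IBET151 library 1 for RBM39 (0.200), TUBB2A (0.186), SESN2 (0.241) and HSPA1B (0.340), without IBET151 library 2 for RBM39 (0.222), TUBB2A (0.270), SESN2 (0.108) and HSPA1B (0.242), without DMSO library 1 for RBM39 (0.0716), TUBB2A (0.0874) and HSPA1B (0.137), without DMSO library 3 for HSPA1B (0.111). Besides, calls were lost to a fit of only the groups compared for RBM39, TUBB2A, SESN2 and HSPA1B (0.0559 to 0.254), edgeR for HSPA1B (0.0606), no filter on low values for HSPA1B (0.0636), a pseudocount of 0.5 for HSPA1B (0.0503), a block by run for TUBB2A (0.0528). In limma 0 genes passed among 34 mRNA export genes (0.05), 22 MYC metabolic targets (0.12), 30 homologous recombination and DNA damage genes (-0.09), 28 interferon response genes (-0.07), 23 hypoxia and HIF genes (0.05), 23 sterol synthesis genes (0.00), 31 mitochondrial respiratory chain genes (0.14), 13 snoRNA host genes (0.06), 4 nuclear-retained RNAs (0.02), 3 stromal, immune and endothelial markers (-0.08) and 78 ribosomal protein genes (0.20), each with its median in parentheses.

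**Figure D2:**
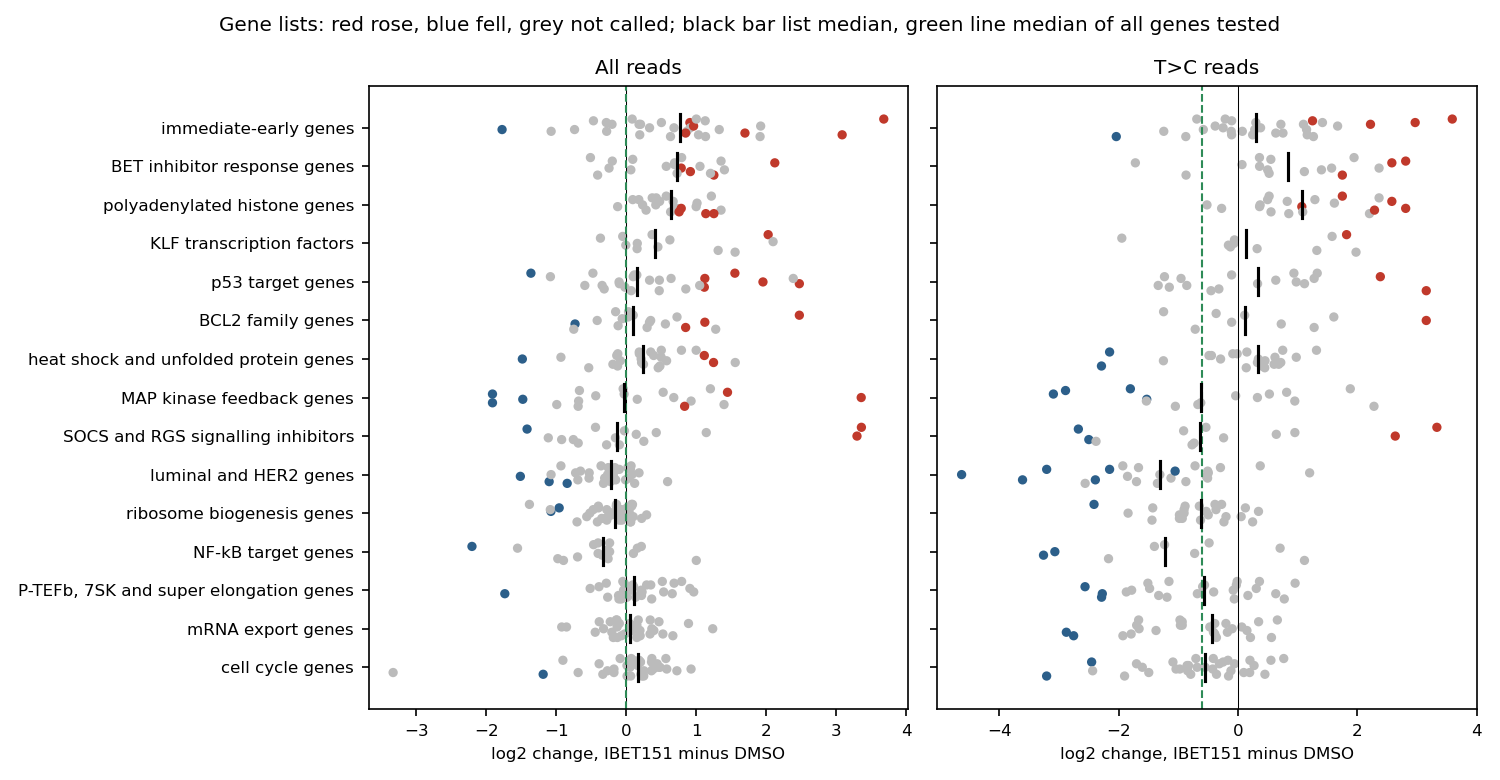
Log2 change, IBET151 minus DMSO, of each tested gene of 15 gene lists in all reads (left) and T>C reads (right). Coloured points passed the test (limma, Benjamini-Hochberg), black bars are list medians, and the green dashed line is the median of all genes tested, 0.00 on the left and -0.60 on the right.

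New RNA made up a smaller part of the cytoplasmic reads in both IBET151 libraries than in any DMSO library. T>C reads were 0.576% and 0.655% of reads in IBET151 libraries, against 0.818%, 0.782% and 0.747% in DMSO libraries. The groups did not overlap, and the difference of the means was -0.167 percentage points (2-sided exact permutation test, p = 0.1, the smallest that 2 against 3 libraries allow, and 0.3 adjusted over 3 tests). It was -0.127 points without IBET151 library 1 and -0.206 without IBET151 library 2. The summed value of all reads differed by 0.0933 log2 units (2-sided exact permutation test, p = 0.6). The summed T>C value averaged 191816 scaled reads in IBET151 libraries and 229345 in DMSO libraries (2-sided exact permutation test, p = 0.4). No library without 4-thiouridine is among the samples, so how many T>C reads are background is unknown. In 153 genes at least 20% of DMSO reads counted as T>C, and these gave 26.8% of the T>C sum in IBET151 libraries and 20.2% in DMSO libraries. Most of this came from SNX6 and TAFA2, and only 13 of the 153 reached a DMSO mean of 20 scaled T>C reads. SNX6 averaged 31805 in IBET151 and 30233 in DMSO libraries (T>C shares 48.3% and 47.8%). TAFA2 averaged 12812 and 11588 (95.5% in both groups). Without the 153 genes the share averaged 0.452% in IBET151 libraries and 0.626% in DMSO libraries.

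**Figure D3:**
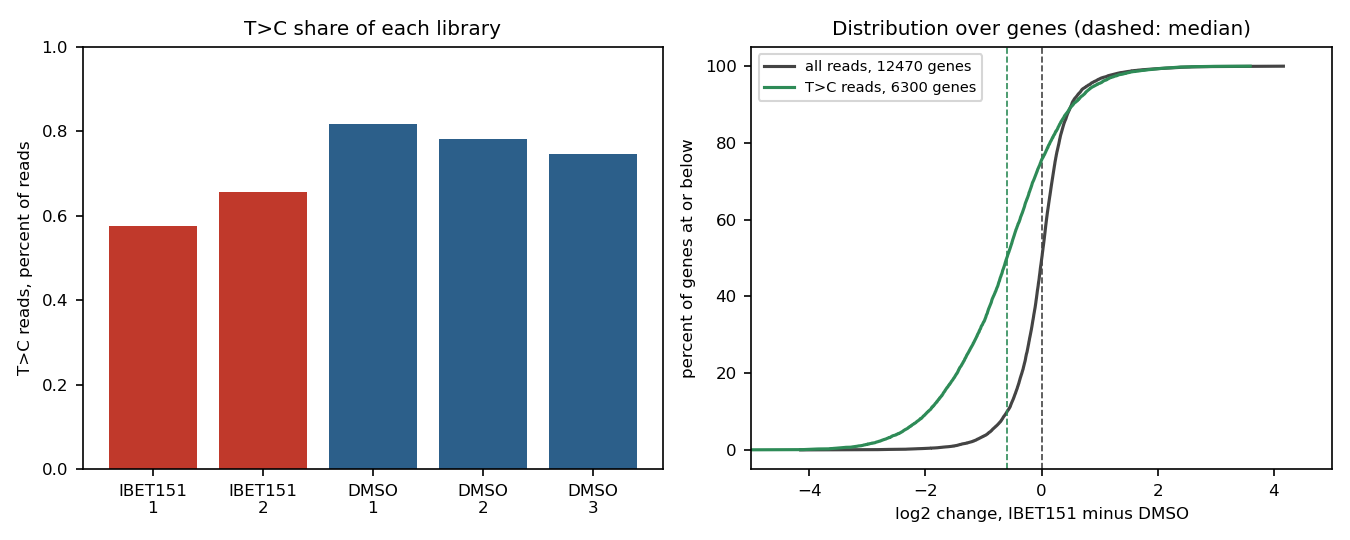
Left, T>C reads as a percentage of all reads in each cytoplasmic library, 0.576% and 0.655% for IBET151 and 0.747% to 0.818% for DMSO. Right, the cumulative distribution over genes of the log2 change, IBET151 minus DMSO, with a median of 0.00 in all reads (12470 genes) and -0.60 in T>C reads (6300 genes).

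Gene by gene, T>C reads fell far more often than they rose. Of 6300 genes tested 33 rose and 426 fell (limma, Benjamini-Hochberg adjusted p under 0.05), 0.524% and 6.76% of those tested, and the median log2 change was -0.60. The groups did not overlap in 39.4% of genes. The filter counted libraries of all cytoplasmic groups, so a gene could enter on DMSO T>C reads and be near 0 with IBET151. Genes that enter this way lean to falls, and IBET151 libraries held fewer T>C reads. With a filter 5 times as high 22 of 1817 genes rose and 124 fell, with a median of -0.53. How much of the excess of falls comes from the filter was not tested. Median-ratio scaling over genes in place of ERCC RNA put the median at -0.31 and left 16 higher and 40 lower. On the recovered reads edgeR called 23 higher and 70 lower, and DESeq2 26 and 137. Without IBET151 library 1 limma gave 14 higher and 184 lower, without DMSO library 1 21 and 221, and without DMSO library 2 23 and 161. Genes that rose had a median span of 3.76 kb, against 38.0 kb for those that fell and 35.9 kb for all tested, and 26 of the 32 with an annotated span were among the 1560 shortest genes.

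FOS and EGR1, early-response genes, were among the largest rises in new RNA. FOS had 43.8 and 229 scaled T>C reads in IBET151 libraries, against 6.44, 6.75 and 9.31 in DMSO libraries (log2 change 3.59 ± 0.64, limma adjusted p = 0.00108). EGR1 had 359 and 1015 scaled T>C reads in IBET151 libraries, against 89.4, 38.0 and 129 in DMSO libraries (log2 change 2.97 ± 0.53, limma adjusted p = 0.00108). As in all reads IBET151 library 2 was the higher one. MIDN, which encodes midnolin, a carrier of early-response proteins to the proteasome, was the most abundant of the 12 largest rises, with 792 and 1100.5 scaled T>C reads in IBET151 libraries, against 213, 322 and 252 in DMSO libraries (log2 change 1.85 ± 0.32, limma adjusted p = 0.000742). GADD45B had 163 and 215 scaled T>C reads in IBET151 libraries, against 31.4, 32.1 and 42.4 in DMSO libraries (log2 change 2.39 ± 0.40, limma adjusted p = 0.000742). Neither MIDN nor GADD45B lost its call when any 1 of the 5 libraries was left out or under median-ratio scaling. SOCS1 had 92.3 and 72.9 scaled T>C reads in IBET151 libraries, against 1.61, 14.4 and 12.9 in DMSO libraries (log2 change 3.33 ± 0.67, limma adjusted p = 0.00333), and RGS2 had 35.2 and 51.9 scaled T>C reads in IBET151 libraries, against 5.64, 11.8 and 3.10 in DMSO libraries (log2 change 2.64 ± 0.65, limma adjusted p = 0.0139). Calls were lost without IBET151 library 1 for SOCS1 (0.0524) and RGS2 (0.0589), without IBET151 library 2 for FOS (0.0635), EGR1 (0.0536) and RGS2 (0.0969), without DMSO library 3 for RGS2 (0.0525). Changed settings had the same effect, median-ratio scaling for RGS2 (0.0894), a pseudocount of 0.5 for RGS2 (0.0515), a block by run for RGS2 (0.0966).

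The other large rises were the histone genes H1-2, H2BC21 and H2BC5, ZFP36 (an mRNA decay factor), FTL (ferritin light chain, which has many pseudogene copies) and TST (a mitochondrial sulfurtransferase), at 1.88 to 2.81 on the log2 scale. The histone genes were uneven. H2BC21 had 24.7 and 82.9 scaled T>C reads in IBET151 libraries, against 5.64, 7.60 and 7.24 in DMSO libraries, and H1-2 had 25.7 and 149 scaled T>C reads in IBET151 libraries, against 4.03, 7.60 and 16.04 in DMSO libraries. IBET151 library 2 was again the higher. Some calls did not outlast a left-out library, without IBET151 library 1 for ZFP36 (0.0966), FTL (0.146) and TST (0.130), without IBET151 library 2 for H1-2 (0.327), H2BC21 (0.331), H2BC5 (0.288), ZFP36 (0.134), FTL (0.149) and TST (0.225), without DMSO library 1 for H1-2 (0.0791), H2BC21 (0.0977), H2BC5 (0.123), ZFP36 (0.131), FTL (0.0715) and TST (0.0963), without DMSO library 2 for H2BC21 (0.0774), FTL (0.174) and TST (0.0905), without DMSO library 3 for H2BC21 (0.0606) and TST (0.0968). Other settings also ended calls (adjusted p in parentheses), DESeq2 for ZFP36 (0.145), median-ratio scaling for H1-2, H2BC21, ZFP36, FTL and TST (0.0507 to 0.145), no filter on low values for H2BC21, FTL and TST (0.0510 to 0.0637), a pseudocount of 0.5 for H2BC21, FTL and TST (0.0672 to 0.0948), a block by run for H2BC21, H2BC5, ZFP36, FTL and TST (0.0529 to 0.205), a block with the last 2 runs joined for TST (0.0607).

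The largest falls in new RNA included TFAP2B, TRPS1 and ANKRD30A. TFAP2B had 4.76 and 3.64 scaled T>C reads in IBET151 libraries, against 133, 179.8 and 85.9 in DMSO libraries (log2 change -4.63 ± 0.65, limma adjusted p = 0.000152). TRPS1, a GATA-type repressor of the luminal lineage, had 22.8 and 57.4 scaled T>C reads in IBET151 libraries, against 539, 518 and 336 in DMSO libraries (log2 change -3.61 ± 0.59, limma adjusted p = 0.000589). ANKRD30A, a breast differentiation antigen, had 3.80 and 3.64 scaled T>C reads in IBET151 libraries, against 53.9, 100.5 and 72.4 in DMSO libraries (log2 change -3.97 ± 0.64, limma adjusted p = 0.000589). In each of the 3 genes the lowest DMSO library was more than 5 times the highest IBET151 library. Lack of overlap was a condition of their choice. VAV3, a guanine nucleotide exchange factor, had 2.85 and 0 scaled T>C reads in IBET151 libraries, against 43.5, 68.4 and 50.7 in DMSO libraries (limma adjusted p = 0.000326), and with so few reads left no fold is given for it.

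ZMYND8 and KMT5B (a reader of histone marks and a histone methyltransferase), LUC7L2 (a U1 splicing factor), UFC1 (the E2 enzyme of ufmylation), TRIB2 (a pseudokinase), DUSP4, BCL3 and SPRY1 completed the 12 largest falls, at -4.00 to -2.89. XBP1, a factor of secretory cells, had 144 and 208 scaled T>C reads in IBET151 libraries, against 943, 660.2 and 736 in DMSO libraries (log2 change -2.15 ± 0.37, limma adjusted p = 0.000742). Of 23 luminal and HER2 genes 6 fell and 0 rose (TFAP2B, TRPS1, XBP1, AGR2, GATA3 and KRT7), with a median of -1.31 against -0.60 over all genes, of which 6.76% fell. GATA3 had 642 and 856 scaled T>C reads in IBET151 libraries, against 1464, 1892 and 1317 in DMSO libraries (log2 change -1.05 ± 0.30, limma adjusted p = 0.0278). The limma adjusted p exceeded 0.05 without IBET151 library 1 for AGR2 (0.127), GATA3 (0.270), KRT7 (0.0645), LUC7L2 (0.111), TRIB2 (0.0886) and SPRY1 (0.235), without IBET151 library 2 for KRT7 (0.300), ZMYND8 (0.0686), KMT5B (0.0860), UFC1 (0.0575) and BCL3 (0.0575), without DMSO library 1 for KRT7 (0.0897) and KMT5B (0.0529), without DMSO library 2 for GATA3 (0.133), KRT7 (0.114) and KMT5B (0.0528), without DMSO library 3 for KRT7 (0.0735). The adjusted p was also over 0.05 under edgeR for KRT7 (0.281), median-ratio scaling for AGR2, GATA3, KRT7, ZMYND8, KMT5B, LUC7L2, UFC1, TRIB2, DUSP4, BCL3 and SPRY1 (0.0999 to 0.362), no filter on low values for GATA3 and KRT7 (0.0518 to 0.0873), a pseudocount of 0.5 for KRT7 (0.131), the replicate block for KRT7 (0.0590). DESeq2 gave no adjusted p for KRT7, and so did not call it.

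**Figure D4:**
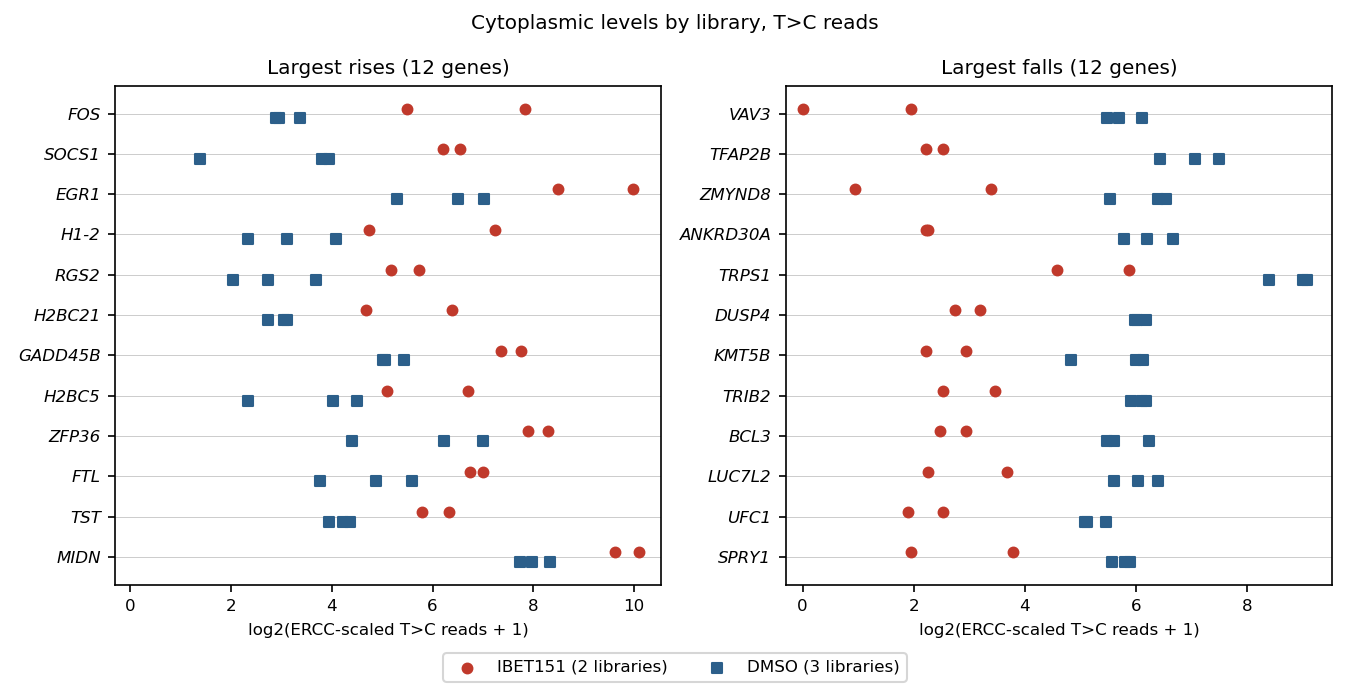
Scaled T>C reads, as log2(value + 1), of the 12 genes with the largest rises (left) and falls (right) in T>C reads, 1 point per library, IBET151 as red circles (n = 2) and DMSO as blue squares (n = 3). The groups do not overlap in these genes, which was a condition of their choice, and in TFAP2B both IBET151 libraries lie under 5 scaled T>C reads.

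Other lists in T>C reads are read against all genes tested, of which 0.524% rose and 6.76% fell, with a median of -0.60. List counts near these shares tell nothing of the list. Polyadenylated histone genes had 5 of 19 higher and 0 lower (median 1.07), BET inhibitor response genes 3 of 16 and 0 (0.83), and immediate-early genes 4 of 29 and 1 (0.30). Without IBET151 library 2 0 genes of these 3 lists rose. MAP kinase feedback genes had 0 of 15 higher and 4 lower (DUSP4, SPRY1, DUSP6 and SPRED1; median -0.62), zinc finger genes 1 of 234 higher (ZNF669) and 23 lower (-0.93), and P-TEFb, 7SK and super elongation genes 0 of 24 higher and 3 lower (LARP7, HEXIM2 and NELFA; -0.58). THOC7 and XPO1 fell among 26 mRNA export genes (-0.44). XPO1, an export receptor, had 0 and 12.8 scaled T>C reads in IBET151 libraries, against 32.2, 27.0 and 20.7 in DMSO libraries. Ribosomal protein genes had 1 of 73 lower, RPL29 (median -0.22). Left-out libraries ended some calls (limma adjusted p in parentheses), without IBET151 library 1 for XPO1 (0.717), RPL29 (0.371), LARP7 (0.258), HEXIM2 (0.127), NELFA (0.260), DUSP6 (0.286), SPRED1 (0.323) and ZNF669 (0.224), without IBET151 library 2 for THOC7 (0.133), RPL29 (0.0510), HEXIM2 (0.0876), NELFA (0.0836) and SPRED1 (0.0808), without DMSO library 1 for XPO1 (0.113), RPL29 (0.178), NELFA (0.103), DUSP6 (0.0669), SPRED1 (0.139) and ZNF669 (0.0591), without DMSO library 2 for THOC7 (0.0988), XPO1 (0.102), RPL29 (0.0690), LARP7 (0.0773), NELFA (0.0942), DUSP6 (0.0846), SPRED1 (0.118) and ZNF669 (0.0651), without DMSO library 3 for XPO1 (0.0594), RPL29 (0.0542), NELFA (0.0750), SPRED1 (0.0703) and ZNF669 (0.0872). Calls did not hold either under a fit of only the groups compared for LARP7, HEXIM2, NELFA and ZNF669 (0.0545 to 0.0942), edgeR for THOC7, XPO1, RPL29, LARP7, HEXIM2, NELFA and ZNF669 (0.155 to 0.353), DESeq2 for XPO1 (0.238), median-ratio scaling for THOC7, XPO1, RPL29, LARP7, HEXIM2, NELFA, DUSP6, SPRED1 and ZNF669 (0.170 to 0.417), no filter on low values for XPO1, RPL29, HEXIM2, NELFA, SPRED1 and ZNF669 (0.0520 to 0.0859), a pseudocount of 0.5 for XPO1, RPL29, HEXIM2, NELFA, SPRED1 and ZNF669 (0.0637 to 0.116), the replicate block for NELFA (0.0564), a block by run for RPL29, HEXIM2, SPRED1 and ZNF669 (0.0504 to 0.108), a block with the last 2 runs joined for RPL29, HEXIM2, NELFA and SPRED1 (0.0512 to 0.0713). DESeq2 gave no adjusted p for THOC7, LARP7, HEXIM2, NELFA and ZNF669, and so did not call them. Under median-ratio scaling 3 luminal and HER2 genes and 2 zinc finger genes fell, 3 immediate-early and 3 histone genes rose, and 38 of the 56 named genes with a call in T>C reads lost it.

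To set new RNA against the pool it joins, the log2 ratio of T>C to all reads was tested per gene. Of 6299 genes 3 were higher and 200 lower (limma, Benjamini-Hochberg adjusted p under 0.05), 0.0476% and 3.18% of those tested, with a median of -0.59. Under median-ratio scaling 0 passed in limma (402 at an unadjusted p under 0.05). Without IBET151 library 1 82 genes passed in all, without DMSO library 1 85 and without DMSO library 2 77. T>C reads were 0.454% of TRPS1 reads in IBET151 libraries and 4.41% in DMSO libraries (log2 ratio change -3.39 ± 0.55, limma adjusted p = 0.00115). For TFAP2B they were 0.0401% in IBET151 libraries and 0.702% in DMSO libraries (log2 ratio change -3.79 ± 0.62, limma adjusted p = 0.00115). Both IBET151 libraries held under 5 scaled T>C reads of TFAP2B, so its share and ratio there are rough. For FOS and ZNF689 the ratio did not pass. T>C reads were 29.6% of FOS reads in IBET151 libraries and 27.3% in DMSO libraries (log2 ratio change -0.09 ± 0.41, limma adjusted p = 0.928), and 6.79% of ZNF689 reads in IBET151 libraries and 7.41% in DMSO libraries (log2 ratio change -0.04 ± 0.61, limma adjusted p = 0.980). The 3 higher genes, named for their small number after their values were seen, were TUBB4B, AMIGO3 and CFAP44. TUBB4B, a beta-tubulin, had 652 and 631 scaled T>C reads in IBET151 libraries, against 332, 274 and 148 in DMSO libraries (log2 ratio change 0.82 ± 0.21, limma adjusted p = 0.0270). Calls were lost without IBET151 library 1 for TUBB4B (0.104) and CFAP44 (0.0871), without IBET151 library 2 for TUBB4B (0.119) and CFAP44 (0.113), without DMSO library 1 for AMIGO3 (0.123) and CFAP44 (0.149), without DMSO library 2 for TUBB4B (0.0720), AMIGO3 (0.123) and CFAP44 (0.0643), without DMSO library 3 for TUBB4B (0.0803). Besides, calls were lost to a fit of only the groups compared for AMIGO3 and CFAP44 (0.0616 to 0.0840), median-ratio scaling for TRPS1, TFAP2B, TUBB4B, AMIGO3 and CFAP44 (0.0857 to 0.480), no filter on low values for TUBB4B, AMIGO3 and CFAP44 (0.0518 to 0.0657), a pseudocount of 0.5 for AMIGO3 (0.0970), a block by run for TUBB4B, AMIGO3 and CFAP44 (0.0707 to 0.0970).

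IBET151 was also set against JQ1 and IBET151-VHL at the same 3 h, though the labels do not say whether doses were matched. Against JQ1, which has another chemical scaffold but binds the same bromodomains, 0 of 12470 genes differed in all reads, as did 0 of 6300 in T>C reads (limma, Benjamini-Hochberg, 0% of each). At an unadjusted p under 0.05 there were 66 and 429, and edgeR and DESeq2 also called 0. A missing call does not show that the compounds act alike, and the 95% interval of the difference reached 0.60 to either side in the median gene of all reads and 1.43 in that of T>C reads. In all reads the interval lay within 1 log2 unit of 0 for 70.6% of genes. TUBB3 averaged 228 ± 21.4 scaled reads in IBET151 libraries and 161 ± 58.6 in JQ1 libraries (log2 difference 0.57, 95% interval -0.38 to 1.51). RGS2 averaged 502 ± 44.9 in IBET151 libraries and 397 ± 51.5 in JQ1 libraries (log2 difference 0.34, 95% interval -0.36 to 1.05). ZNF689 averaged 145 ± 17.6 in IBET151 libraries and 153 ± 18.2 in JQ1 libraries (log2 difference -0.08, 95% interval -0.71 to 0.56). The intervals of all 3 genes hold 0 (SD, n = 2 for IBET151 and n = 3 for JQ1).

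IBET151-VHL is IBET151 extended by a ligand of a ubiquitin ligase, and the difference between the compounds ran almost wholly in 1 direction. In all reads 982 genes were higher with IBET151 than with IBET151-VHL and 4 were lower, 7.87% and 0.0321% of 12470 genes (limma, Benjamini-Hochberg). The 4, named after their values were seen, were CPE, LRRC4, SNX31 and ATP6V1G2-DDX39B. In T>C reads 4352 of 6300 genes were higher (69.1%) and 3 lower, of which COQ4 and CPE have a symbol. Under median-ratio scaling 674 were higher and 166 lower. The IBET151-VHL libraries held only 82264 to 117070 T>C reads, in 4217 to 4413 genes, against 7688 and 8019 genes in IBET151 libraries. The filter counted libraries of all cytoplasmic groups, so a gene could be tested with few IBET151-VHL T>C reads. With only the groups compared 2927 of 3400 genes were higher and 0 lower. The T>C count thus cannot be told apart from the low T>C total of the IBET151-VHL libraries. In all reads the counts were 463 and 8 without IBET151 library 1 and 383 and 2 without IBET151 library 2. SOCS3, another inhibitor of JAK and STAT signalling, had 149 and 186 scaled reads in IBET151 libraries and 9.42, 16.4 and 11.9 in IBET151-VHL libraries (log2 difference 3.66 ± 0.47, limma adjusted p = 0.000204). RGS2 had 534 and 470.1 scaled reads in IBET151 libraries and 51.8, 60.5 and 38.2 in IBET151-VHL libraries (log2 difference 3.32 ± 0.33, limma adjusted p = 3.75e-05). In both genes every IBET151 library lay far above every IBET151-VHL library. Some calls did not outlast a left-out library, without IBET151 library 1 for CPE (0.0692) and SNX31 (0.203), without IBET151 library 2 for CPE (0.0835), LRRC4 (0.340), SNX31 (0.0969) and ATP6V1G2-DDX39B (0.154), without IBET151-VHL library 1 for SNX31 (0.0974), without IBET151-VHL library 2 for LRRC4 (0.0576), without IBET151-VHL library 3 for SNX31 (0.0775). Changed settings had the same effect, a fit of only the groups compared for LRRC4 (0.120). In T>C reads both named genes lost the call without either IBET151 library (0.0954 to 0.115).

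Genes that IBET151 raised over DMSO differed in their level with the conjugate. TUBB3 averaged 65.1 ± 16.03 scaled reads in IBET151-VHL libraries and SERTAD1 1746 ± 277 (SD, n = 3), in both cases below IBET151 and above the DMSO mean (log2 difference 1.82 ± 0.44, limma adjusted p = 0.0172 and log2 difference 1.45 ± 0.19, limma adjusted p = 0.000258). SOCS1 averaged 215 ± 10.00 in IBET151-VHL libraries, and its difference from IBET151 did not pass (log2 difference 0.89 ± 0.52, limma adjusted p = 0.499). Nor did that of EGR1, at 11057 ± 7857 in IBET151-VHL libraries (log2 difference -1.27 ± 0.75, limma adjusted p = 0.515). Genes that IBET151 lowered also divided. PDE4B averaged 15.7 ± 7.42 scaled reads in IBET151 libraries and 14.6 ± 3.48 in IBET151-VHL libraries (log2 difference 0.05 ± 0.38, limma adjusted p = 0.985), and BCL3 536 ± 2.77 in IBET151 libraries and 449 ± 118 in IBET151-VHL libraries (log2 difference 0.29 ± 0.25, limma adjusted p = 0.766). ZNF689 and GATA3 were higher with IBET151 than with the conjugate, whose means were 51.3 ± 9.09 and 10766 ± 1149.8 (log2 difference 1.49 ± 0.30, limma adjusted p = 0.00510 and log2 difference 0.98 ± 0.20, limma adjusted p = 0.00510). The limma adjusted p exceeded 0.05 without IBET151 library 1 for TUBB3 (0.0987), ZNF689 (0.0757) and GATA3 (0.0723), without IBET151 library 2 for TUBB3 (0.170), without IBET151-VHL library 3 for TUBB3 (0.0768). By list, 22 of 30 immediate-early genes, 12 of 19 MAP kinase feedback genes, 7 of 12 KLF transcription factors, 12 of 25 p53 target genes, 151 of 421 zinc finger genes and 0 of 78 ribosomal protein genes were higher with IBET151 and 0 of these lists' genes lower. Over all genes tested 7.87% were higher and 0.0321% lower.

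**Figure D5:**
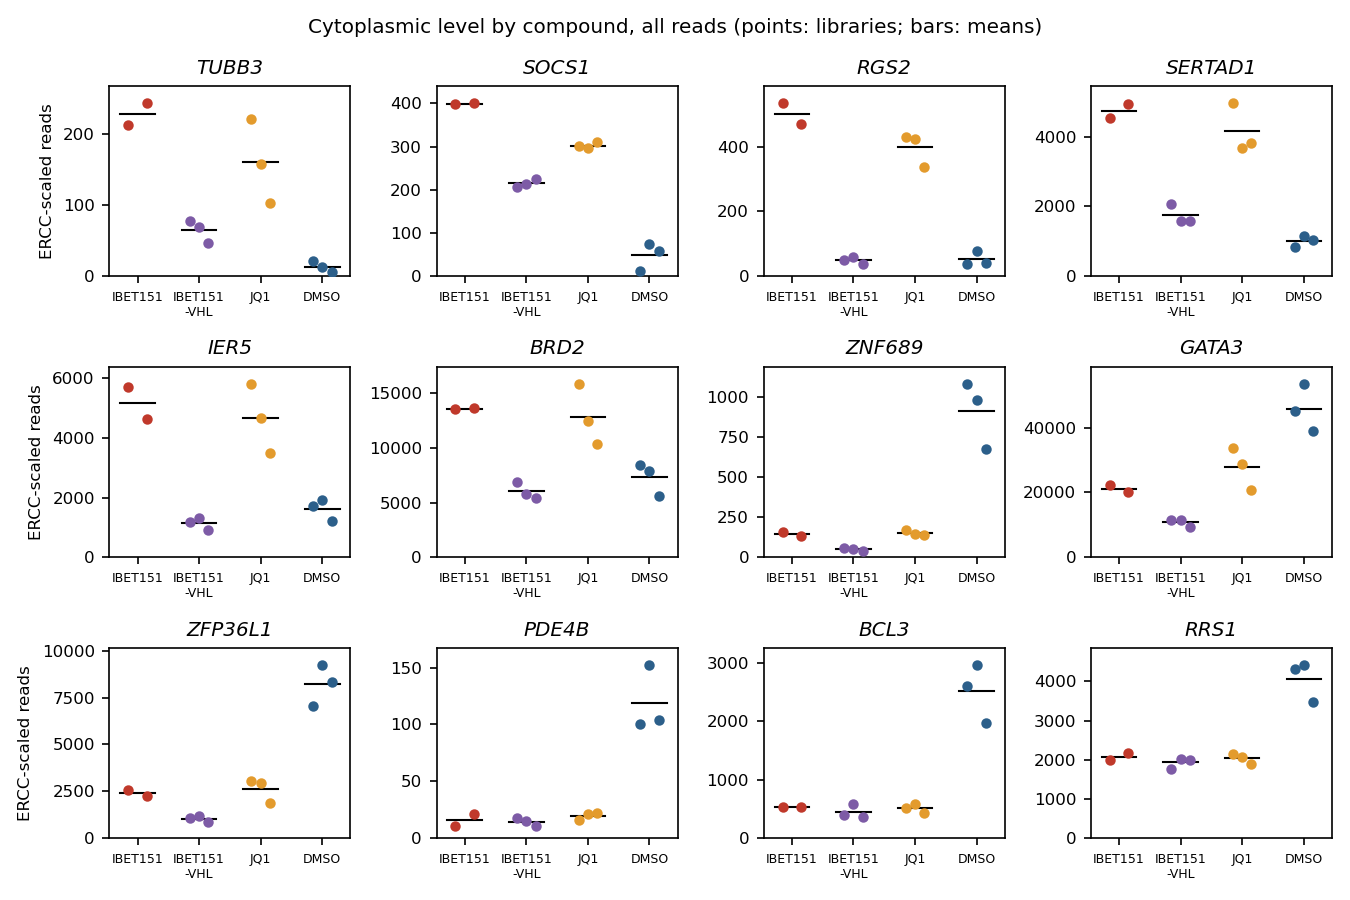
Scaled reads in all reads of 12 genes in each cytoplasmic library of IBET151 (n = 2), IBET151-VHL, JQ1 and DMSO (n = 3 each), with bars at the means. With IBET151-VHL the level of RGS2 is near that of DMSO, while PDE4B, BCL3 and RRS1 are near the level of IBET151.

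The effect of IBET151 in the cytoplasm was last set against its effect in the nucleus. In 1 fit of all 28 libraries 0 of 14458 genes, or 0%, differed between the fractions (limma, Benjamini-Hochberg, 195 at an unadjusted p under 0.05). With a block by run 0 passed and 1948 had an unadjusted p under 0.05. A missing call does not show that the effects were alike. The nuclear DMSO libraries lay far apart, with summed values of 2.23e+07, 4.85e+07 and 6.79e+07 scaled reads. Nuclear values stand on a scale of their own, since ERCC RNA was added per mass of each fraction. TUBB3 had 469 and 464 scaled reads in nuclear IBET151 libraries, against 6.49, 31.8 and 49.8 in nuclear DMSO libraries. PDE4B had 111 and 115 scaled reads in nuclear IBET151 libraries, against 609, 659.8 and 567 in nuclear DMSO libraries. Both genes kept the groups apart in the nucleus in the direction seen in the cytoplasm. SERPINI1, low in the cytoplasm, had 316 and 241 scaled reads in nuclear IBET151 libraries, against 16.7, 33.6 and 34.5 in nuclear DMSO libraries. H2BC21 had 3152 and 4589 scaled reads in nuclear IBET151 libraries, against 341, 922 and 1492 in nuclear DMSO libraries, and its nuclear groups did not overlap either.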

How the data were processed

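Per the labels' protocols, polyadenylated RNA of the fractions was alkylated to mark 4-thiouridine and read as 3′ end libraries of 100 bp single reads. The submitters' processing notes name bcl2fastq, Trimmomatic 0.39, HISAT2, HTSeq and DESeq2, and the builds GRCh37, hg19 and dm3, with no order or role. The rule that told a T>C read from another is not given in the sources used here. The authors deposited ERCC-scaled signal per gene for all reads and T>C reads. Values were whole multiples of 1 step per library (100% within 0.001 of a whole read), so reads were recovered. The files give no symbol for 479 of 16482 genes in all reads and 245 of 13029 in T>C reads, and a gene name table matched the identifiers of 16069 and 12813. Genes left with no symbol were tested and are not named. Some other genes are not reported here.

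The filter asked for a value of 10 in all reads, or 5 in T>C reads, reached by 2 or more libraries. The model was limma 3.58.1 in R 4.3.3, its variance trended on level, fitted to log2(value + 1) in all 14 cytoplasmic libraries, which share 1 estimate of spread, and in all 28 for the fractions. Benjamini-Hochberg adjustment ran over all genes of a comparison. For library sums and shares the exact permutation test, 2-sided, was used. The comparisons of IBET151 with DMSO, JQ1 and IBET151-VHL share the IBET151 libraries. Median levels, shares and list counts used Python 3.11.15 with pandas 2.3.3, numpy 2.4.6 and statsmodels 0.14.6, and figures matplotlib 3.10.9.

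The libraries, gene lists and named genes were chosen with earlier results of these data known. Genes are named by rule: passing the test without overlap at a mean level of 50 or more in all reads and 20 or more in T>C reads, the 12 largest rises and falls against DMSO and the 5 largest each way between compounds; the 3 smallest p of each list; and a fixed set of known response and luminal genes. List members that passed, and examples in comparisons where none or few passed, are named beyond it after their values were seen. Median-ratio scaling, pseudocounts of 0.5 and 5, other filters, blocks by replicate number or by run of library numbers, fits of only the groups compared, left-out libraries, and edgeR 4.0.16 and DESeq2 1.42.0 on recovered reads were the alternatives. The block that joins the last 2 runs was chosen after seeing the data. In data simulated for IBET151 against DMSO, the test on all reads (12470 genes) found 0 of 67 true 1.5-fold changes, 25 of 67 that were 2-fold and 62 of 66 that were 4-fold. The test on T>C reads (6300 genes) found 0 of 67, 8 of 67 and 43 of 66 at the same sizes. JQ1-VHL libraries entered the fits for their spread and are not analysed here.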

Additional observations from a re-analysis of the deposited data

How the results depend on the processing

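No gene named with a call against DMSO reversed its direction under any alternative run. Over all genes, 25 of the 4355 calls against IBET151-VHL in T>C reads became calls in the opposite direction with median-ratio scaling, and in the other comparisons and alternatives 0 calls did. Against DMSO, the 314 calls in all reads became 634 with median-ratio scaling, 145 with only the groups compared, 890 with a block by run of numbers, 633 with the last 2 runs joined, 625 with DESeq2 and 53 to 534 with 1 library left out. The 459 in T>C reads became 238 and 1298 with pseudocounts of 0.5 and 5, 146 with a filter 5 times as high, 56 with median-ratio scaling, 93 with edgeR, 163 with DESeq2 and 184 to 382 with 1 library left out. The 203 in the ratio of T>C to all reads became 115 and 540 with the pseudocounts, 97 with no filter, 56 with the higher one, 0 with median-ratio scaling, 495 with only the groups compared, 111 with the run block and 77 to 166 with 1 library left out. Against IBET151-VHL, the 986 in all reads became 1483 with the run block and 385 to 806 with 1 library left out, and the 4355 in T>C reads 1697 with the higher filter and 840 with median-ratio scaling (3252 to 4066 with 1 library left out). The T>C share difference was -0.206 to -0.127 points with an IBET151 library left out, and the T>C sum differed by 0.0196 log2 units with median-ratio scaling, against -0.254. Whether same-numbered libraries deviate together cannot be told, because the 2 IBET151 libraries deviate from their mean by equal and opposite amounts. In all reads r was 0.0498 for number 1 and -0.396 for number 2. IBET151 library 1 with DMSO library 2 gave 0.396, which is the same value with its sign changed. In T>C reads r was -0.0191 for number 1 and -0.0610 for number 2. A replicate block thus uses only a shared number. With it the counts were 560, 516 and 253 against DMSO and 1063 and 4233 against IBET151-VHL. JQ1 and the fractions had 0 calls under every alternative run. Of the genes called against DMSO in all reads that the naming rule gave, 31 of 55 lost the call without IBET151 library 1, 26 without IBET151 library 2 and 17 with only the groups compared. Of 56 in T>C reads 24 and 27 did without these libraries, 7 of 55 tested with only the groups compared, 38 with median-ratio scaling and 17 with edgeR. With DESeq2 2 had an adjusted p over 0.05, and further ones had no adjusted p and were not called. Why counts moved was not tested. With 1 IBET151 library the lone sample is assumed to vary like the other groups. 2-fold changes were mostly missed at this number of libraries in simulated data.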

Other observations

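In T>C reads 0.524% of all 6300 genes rose and 6.76% fell, with a median log2 change of -0.60. Further lists of signalling and growth genes, read against these shares, held few calls in limma. GADD45B and PMAIP1 rose among 17 p53 target genes (median 0.33), PMAIP1 being also the 1 call among 9 BCL2 family genes (0.11). SOCS1 and RGS2 rose and RGS3 and SOCS2 fell among 12 SOCS and RGS signalling inhibitors (-0.64), and KLF2 rose among 10 KLF transcription factors (0.13). TUBB4B and TUBB3 rose among 8 tubulin genes (0.20). RRS1 fell among 23 ribosome biogenesis genes (-0.63), with 13.3 and 21.9 scaled T>C reads in IBET151 libraries, against 93.4, 107 and 86.4 in DMSO libraries. PLK4, the kinase that starts centriole copying, and E2F8, a repressor of E2F targets, fell among 33 cell cycle genes (-0.55). PLK4 had 0.951 and 0 scaled T>C reads in IBET151 libraries, against 7.25, 27.0 and 8.28 in DMSO libraries, so both groups were low and did not overlap. Left-out libraries ended some calls (limma adjusted p in parentheses), without IBET151 library 1 for SOCS1 (0.0524), RGS2 (0.0589), RGS3 (0.0655), SOCS2 (0.130), TUBB4B (0.0801) and RRS1 (0.132), without IBET151 library 2 for RGS2 (0.0969), RGS3 (0.0760), KLF2 (0.0862), TUBB3 (0.199) and E2F8 (0.299), without DMSO library 1 for TUBB3 (0.0696), without DMSO library 2 for TUBB3 (0.0773), RRS1 (0.0532) and E2F8 (0.0938), without DMSO library 3 for RGS2 (0.0525). Other settings also ended calls (adjusted p in parentheses), a fit of only the groups compared for SOCS2 and E2F8 (0.0549 to 0.0913), edgeR for PMAIP1, SOCS2, TUBB3, PLK4 and E2F8 (0.0869 to 0.395), median-ratio scaling for PMAIP1, RGS2, RGS3, SOCS2, TUBB3, RRS1, PLK4 and E2F8 (0.0664 to 0.321), no filter on low values for E2F8 (0.0539), a pseudocount of 0.5 for RGS2 and E2F8 (0.0515 to 0.0630), a block by run for RGS2 and TUBB3 (0.0759 to 0.0966). DESeq2 gave no adjusted p for PMAIP1, SOCS2, TUBB3, PLK4 and E2F8, and so did not call them.

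XBP1 and TRIB3 fell among 22 heat shock and unfolded protein genes (0.33), NFKBIB and BCL3 among 9 NF-kB target genes (-1.23), and OAS3 and IFITM2 among 10 interferon response genes (-0.87). LUC7L2 was the 1 call among 34 speckle and SR protein genes (-0.51), EGLN3 among 19 hypoxia and HIF genes (-0.65), NBN among 18 homologous recombination and DNA damage genes (-0.03) and ATP5F1C among 26 mitochondrial respiratory chain genes (-0.66), each of them lower. Calls were lost without IBET151 library 1 for TRIB3 (0.0981), NFKBIB (0.0539), IFITM2 (0.0544), LUC7L2 (0.111), EGLN3 (0.248) and ATP5F1C (0.0519), without IBET151 library 2 for TRIB3 (0.0624), BCL3 (0.0575), NBN (0.144) and ATP5F1C (0.326), without DMSO library 1 for TRIB3 (0.0738), EGLN3 (0.106) and ATP5F1C (0.0528), without DMSO library 2 for NBN (0.0782) and ATP5F1C (0.189), without DMSO library 3 for EGLN3 (0.0689) and ATP5F1C (0.0587). The adjusted p was also over 0.05 under a fit of only the groups compared for ATP5F1C (0.0788), edgeR for NFKBIB, NBN and ATP5F1C (0.0885 to 0.283), median-ratio scaling for TRIB3, NFKBIB, BCL3, OAS3, IFITM2, LUC7L2, EGLN3, NBN and ATP5F1C (0.0641 to 0.493), no filter on low values for ATP5F1C (0.0868), a pseudocount of 0.5 for TRIB3, EGLN3, NBN and ATP5F1C (0.0505 to 0.0887), the replicate block for ATP5F1C (0.0543), a block by run for EGLN3 and ATP5F1C (0.0512 to 0.0964). DESeq2 gave no adjusted p for NFKBIB, OAS3, NBN and ATP5F1C, and so did not call them. In limma 0 passed among 17 autophagy and lysosome genes (-0.08), 18 MYC metabolic targets (-0.13), 18 sterol synthesis genes (-0.23), 13 snoRNA host genes (-0.39) and 3 nuclear-retained RNAs (-0.12). The stromal, immune and endothelial markers had 0 genes past the filter in T>C reads.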
